A study of Mus musculus with 9 samples.

Results

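The genes described here are 9 genes of zinc handling: the metallothioneins Mt1 and Mt2, the zinc-sensing transcription factor Mtf1, the zinc exporters Slc30a1 and Slc30a5, and the zinc importers Slc39a6, Slc39a7, Slc39a10 and Slc39a14. They were chosen by name, with earlier results of these data known. Each of the 9 names matched 1 row of a count table of 15552 protein-coding mouse genes. To follow how prostate cancer cells respond to a HER3 ligand, MyC-CaP cells, a mouse prostate cancer line established from a tumor driven by a prostate-directed MYC transgene, were given recombinant NRG1 at 15 ng/mL, and RNA was sequenced at 0, 12 and 24 h, with 3 replicate libraries at each time. All groups, the 0 h libraries included, had first been starved for 6–12 h without serum or calcium. The cells belong to a single line, and libraries kept for 12 or 24 h without NRG1 were not analysed here, so time in the starvation medium and time with NRG1 cannot be told apart. The labels call the replicates biological but do not say whether they came from separate cultures. The study's methods describe plating in triplicate in multi-well plates, so the replicates may be parallel wells of the same culture. The p-values measure only the spread between these samples.

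Metallothioneins are small, cysteine-rich proteins that bind zinc and copper in the cytosol and buffer free metal. When free zinc rises, MTF1 binds metal response elements, short motifs in promoters, and turns on the metallothionein genes and the exporter gene Slc30a1. SLC30 (ZnT) proteins move zinc out of the cytosol, across the plasma membrane or into organelles, and SLC39 (ZIP) proteins move it in. Normal prostate epithelium is known for an unusually high zinc content, which is lost in prostate cancer.

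The depth was 28467089 to 39239760 counts per library, and 3 counts corresponded to between 0.0764 and 0.106 CPM, the count scaled to the size of its library after TMM normalization. All pairs of replicates differed by more than counting noise, with chi-square values per degree of freedom of 3.75 to 10.1 and the highest values, 9.92 and 10.1, for 12 h replicate 3 against the other 12 h libraries. The epithelial markers Epcam and Cdh1 stayed at or below 4 counts in every library, and the keratin gene Krt8 had a mean of 18.2 CPM at 0 h. Summed endothelial markers were at 0 to 0.299 CPM and summed leukocyte markers at 0.390 to 1.05 CPM, and of the fibroblast markers, which summed to 15.3 to 18.0 CPM, nearly all counts came from Pdgfra. Krt8 was higher at 12 h (log2 fold change 0.30, adjusted p = 0.0169 in edgeR) and at 24 h (0.34, adjusted p = 0.0107) than at 0 h, as was Hoxb13 at 12 h (0.28, adjusted p = 0.000168), and their part in the results below was not tested.

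Of the 9 genes, 7 had an entry in a RefSeq promoter table (build GRCm38.p6), and Slc39a6 and Slc39a14 did not. The core of the metal response element was searched as TGCACNC and as TGCGCNC, on both strands, in windows from 250 bases before to 50 bases after each annotated start. The motifs differ at 1 base, so a stretch of 7 bases can match only 1 of them, although matches on opposite strands may overlap. Mt2 held 4 matches, Mt1 held 3, Slc30a1 held 2 and Slc30a5 held 1, whereas Mtf1, Slc39a7 and both annotated starts of Slc39a10 held 0. Of 32851 promoters in the table, 25.7% held at least 1 match, 7.11% at least 2, 1.97% at least 3 and 0.517% at least 4. The 250 bases upstream of the start are given for the genes on which the results turn: both metallothioneins, the exporter Slc30a1 and the importer Slc39a10. Matches are in capitals, those on the other strand included. The starts of Slc39a10 are numbered by ascending coordinate, so on its minus strand the first is the one further downstream.
Mt1, chr8:94178839-94179088, plus strand: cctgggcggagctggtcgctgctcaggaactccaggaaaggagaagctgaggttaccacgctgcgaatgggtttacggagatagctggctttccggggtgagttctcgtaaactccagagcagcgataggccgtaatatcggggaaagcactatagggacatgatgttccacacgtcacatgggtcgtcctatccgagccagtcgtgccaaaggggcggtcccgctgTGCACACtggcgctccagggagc
Mt2, chr8:94172368-94172617, plus strand: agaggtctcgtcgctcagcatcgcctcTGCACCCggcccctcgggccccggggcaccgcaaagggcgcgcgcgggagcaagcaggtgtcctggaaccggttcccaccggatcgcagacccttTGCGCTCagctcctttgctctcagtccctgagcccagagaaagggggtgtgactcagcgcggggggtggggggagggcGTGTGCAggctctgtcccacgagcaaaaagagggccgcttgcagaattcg
Slc30a1, chr1:191906531-191906780, plus strand: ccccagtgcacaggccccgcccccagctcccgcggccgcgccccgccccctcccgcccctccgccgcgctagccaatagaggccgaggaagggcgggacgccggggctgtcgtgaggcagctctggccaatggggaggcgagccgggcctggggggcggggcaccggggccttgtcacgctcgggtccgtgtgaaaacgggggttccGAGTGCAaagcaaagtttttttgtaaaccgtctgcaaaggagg
Slc39a10, first annotated start, chr1:46853619-46853868, minus strand: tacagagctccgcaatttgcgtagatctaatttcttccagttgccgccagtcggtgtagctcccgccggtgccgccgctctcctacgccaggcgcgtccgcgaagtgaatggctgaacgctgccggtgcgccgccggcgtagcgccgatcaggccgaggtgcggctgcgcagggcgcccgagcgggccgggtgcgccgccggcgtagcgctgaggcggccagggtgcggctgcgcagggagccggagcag

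In Mt1, the upstream match lay at bases -23 to -17 and the others at 3 to 9 and 21 to 27, counted from the RefSeq start. Of the 3 Mt1 transcripts in GENCODE vM21, 1 began 7 bases before that start and the others 122 and 152 bases after it. The window lies wholly upstream of the latter starts, and the bases between its end and those starts were not searched. In Mt2, matches began at -223, -128 and -50, with another at 5 to 11, and both Mt2 transcripts in GENCODE vM21 began further downstream, 46 and 242 bases after the RefSeq start, so that all 4 matches lie upstream of them. In Slc30a1, both lay on the other strand, at -43 to -37 and 31 to 37, and the Slc30a5 match lay at -48 to -42. In GENCODE vM21, Slc39a10 begins at base 46892852 of the minus strand. Neither of its RefSeq windows reaches that base, so the bases around it were not searched. Mtf1 begins in GENCODE vM21 at base 124802104 of the plus strand, before the first base of its RefSeq window (124802299). The bases around that start were not searched either. A match of 7 letters describes these windows only and is not evidence that a factor is bound there.

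**Figure D1:**
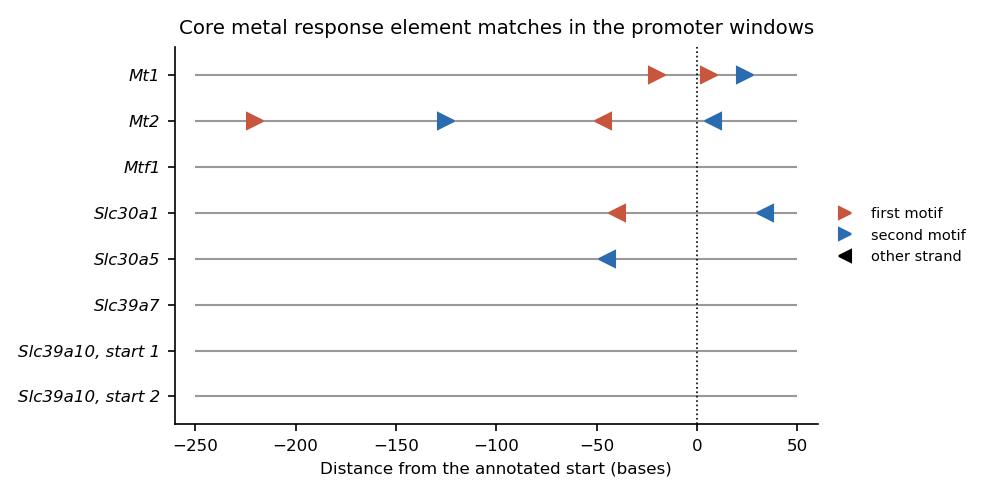
Positions of core metal response element matches in the RefSeq promoter windows of 7 of the 9 genes. The horizontal axis is the distance from the annotated start in bases, red marks stand for TGCACNC, blue marks for TGCGCNC, and the direction of a mark for its strand. Mt2 carries 4 marks, Mt1 3, Slc30a1 2 and Slc30a5 1, and the windows of Mtf1, Slc39a7 and Slc39a10 are empty.

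To determine which of the 9 genes changed with time, a gene was called changed when edgeR's quasi-likelihood test gave it an adjusted p up to 0.05. The adjustment ran over all 11373 genes with enough counts to be tested, and all 9 were among them. At 12 h against 0 h, Mt1 and Slc39a10 were higher and 0 of the 9 were lower. At 24 h against 0 h, Slc39a10 was higher and 0 were lower. Between 12 and 24 h, Mt1 was lower and 0 were higher. The count of 2 of 9 at 12 h stands beside 25.5% of all genes tested (13.6% higher and 11.9% lower), the count of 1 of 9 at 24 h beside 17.4% (9.67% higher, 7.76% lower), and the count of 1 of 9 between 12 and 24 h beside 5.03% (1.97% higher, 3.06% lower, that is 224 and 348 genes, or 279 and 265 when total counts replaced TMM). These shares are near those of all genes, so the 9 genes did not stand out by number. In the test of the 3 time points at once, Mt1 (adjusted p = 0.000303) and Slc39a10 (adjusted p = 0.00202) passed, 2 of 9 against 27.4% of all genes. With a fold change of at least 1.5 also asked for, 0 of the 9 were called in any comparison, against 2.29%, 2.27% and 0.29% of all genes. The median log2 fold change of the 9 was 0.05 at 12 h, 0.03 at 24 h and -0.05 between 12 and 24 h, and that of all genes tested was -0.0028, -0.0065 and 0.0023.

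Mt1 (ENSMUSG00000031765.8, chromosome 8, 94179082 to 94180327, plus strand, GRCm38) was the most abundant of the 9. Its transcript stood at 585, 502 and 486 CPM in the 3 libraries at 0 h, at 730.5, 647 and 725 CPM at 12 h and at 604, 547 and 528 CPM at 24 h. All 12 h libraries were above all libraries of the other times, and the 0 and 24 h libraries overlapped. Mean levels were 524 ± 53.3 CPM (SD, n = 3), 701 ± 46.7 CPM and 559.8 ± 39.9 CPM, which placed Mt1 at rank 254, 170 and 229 of the 15552 genes in the table. The rise at 12 h was 33.7% (log2 fold change 0.42 ± 0.065, SE, adjusted p = 0.000177 in edgeR), and it passed in all 15 alternative analyses, with a log2 fold change of 0.37 to 0.50. From 12 to 24 h Mt1 fell by 20.1% (log2 fold change -0.32 ± 0.065, adjusted p = 0.00870 in edgeR). The fall kept its direction but no longer passed when 12 h replicate 1 (-0.29, adjusted p = 0.0564), 24 h replicate 2 (-0.31, adjusted p = 0.0503) or 24 h replicate 3 (-0.28, adjusted p = 0.0683) was left out. At 24 h the level was not distinguishable from 0 h (log2 fold change 0.09 ± 0.065, 95% interval -0.043 to 0.23, adjusted p = 0.360 in edgeR), although the difference passed without 0 h replicate 1, the highest of that group (0.18, adjusted p = 0.0478). In bulk RNA, fewer cells with the transcript and less of it per cell cannot be told apart.

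Mt2 (ENSMUSG00000031762.7, chromosome 8, 94172664 to 94173568, plus strand) lies 5513 bases from Mt1 and codes for the other widely expressed metallothionein. It stood at 36.7, 29.5 and 26.2 CPM at 0 h, at 42.2, 32.4 and 39.97 CPM at 12 h and at 38.7, 33.3 and 28.1 CPM at 24 h, so that the 3 groups overlapped. Its means of 30.8 ± 5.38, 38.2 ± 5.18 and 33.4 ± 5.27 CPM (SD, n = 3) had the same order as those of Mt1, but no comparison passed. The log2 fold change at 12 h was 0.32 ± 0.12 (95% interval 0.065 to 0.57, adjusted p = 0.0615 in edgeR), at 24 h 0.12 ± 0.12 (adjusted p = 0.571), and between 12 and 24 h -0.20 ± 0.12 (adjusted p = 0.367). The 12 h difference passed with 0 h replicate 1 (adjusted p = 0.0128), 12 h replicate 2 (adjusted p = 0.0191) or 24 h replicate 1 (adjusted p = 0.0480) left out. Of the exonic bases of Mt2, 73.5% are overlapped by Gm45774, an antisense gene, and since the strand setting of the counting is not stated, reads of the pair cannot be told apart.

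For every read counted to Mt2 there were 15.9, 17.0 and 18.6 reads of Mt1 in the 0 h libraries, 17.3, 20.0 and 18.1 at 12 h, and 15.6, 16.5 and 18.7 at 24 h. The ranges overlapped at all times. Since 73.5% of the exonic bases of Mt2 are overlapped by Gm45774, the size of this ratio depends on how such reads were counted. The log2 ratio differed by 0.11 at 12 h and by -0.02 at 24 h from 0 h, and by -0.13 between 12 and 24 h (two-sided exact permutation p = 0.4, 0.8 and 0.3, where 3 libraries against 3 cannot go below 0.1). The longest run of bases shared by the longest annotated transcripts of Mt1 and Mt2 was 20, far below the 150 bp reads. For Mt1 this was an unspliced transcript of 1085 bases, and it shared no run of 50 bases or more with any other gene. The spliced Mt1 transcripts were not compared.

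Mtf1 (ENSMUSG00000028890.13, chromosome 4, 124802104 to 124849800, plus strand) encodes the zinc-sensing activator of the metallothionein genes. Its transcript stood at 26.4, 24.5 and 26.9 CPM at 0 h, at 24.3, 24.4 and 26.0 CPM at 12 h and at 24.9, 27.5 and 26.5 CPM at 24 h. The groups overlapped throughout, and no difference passed: the log2 fold change was -0.06 at 12 h (95% interval -0.19 to 0.068, adjusted p = 0.509 in edgeR), 0.02 at 24 h (-0.11 to 0.15, adjusted p = 0.867) and 0.08 between 12 and 24 h (-0.047 to 0.21, adjusted p = 0.497). A gene on the opposite strand overlaps 8.09% of its exonic bases.

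Among the exporters, Slc30a1 (ENSMUSG00000037434.7, chromosome 1, 191906767 to 191913247, plus strand) encodes ZnT1, which moves zinc across the plasma membrane out of the cell and is itself an MTF1 target. It was the least abundant of the 9, with 133 to 234 counts per library. It stood at 7.20, 6.16 and 5.63 CPM at 0 h, at 5.59, 5.24 and 4.34 CPM at 12 h and at 5.80, 5.38 and 4.74 CPM at 24 h. All 12 h libraries lay below all 0 h libraries, but the gap between the lowest 0 h and the highest 12 h value was small, and 24 h overlapped both. The log2 fold change was -0.31 ± 0.13 at 12 h (95% interval -0.59 to -0.039, adjusted p = 0.0882 in edgeR), -0.25 ± 0.13 at 24 h (-0.53 to 0.017, adjusted p = 0.197) and 0.06 ± 0.13 between 12 and 24 h (-0.22 to 0.34, adjusted p = 0.854). A gene on the opposite strand overlaps 8.92% of its exonic bases.

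Slc30a5 (ENSMUSG00000021629.10, chromosome 13, 100802648 to 100833427, minus strand) encodes ZnT5, which loads zinc into the early secretory pathway. It stood at 129, 133 and 138 CPM at 0 h, at 130.2, 134 and 126 CPM at 12 h and at 127, 125 and 125 CPM at 24 h. The 24 h libraries all lay below the 0 h libraries, by little. No difference passed, with a log2 fold change of -0.03 at 12 h (95% interval -0.11 to 0.048, adjusted p = 0.584 in edgeR), -0.08 at 24 h (-0.16 to -0.0019, adjusted p = 0.156) and -0.05 between 12 and 24 h (-0.13 to 0.030, adjusted p = 0.499).

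Slc39a10 (ENSMUSG00000025986.6, chromosome 1, 46807544 to 46892852, minus strand) encodes ZIP10, a plasma membrane zinc importer whose transcript is known to fall when cells are loaded with zinc. Its changes against 0 h were the largest of the 9. It stood at 21.0, 24.5 and 28.3 CPM at 0 h, at 31.8, 41.4 and 37.2 CPM at 12 h and at 30.0, 37.7 and 42.2 CPM at 24 h. Every library at 12 and 24 h was above every 0 h library, and 12 and 24 h overlapped. Means were 24.6 ± 3.64, 36.8 ± 4.84 and 36.7 ± 6.17 CPM (SD, n = 3). The rise was 48.8% at 12 h (log2 fold change 0.57 ± 0.12, 95% interval 0.32 to 0.82, adjusted p = 0.00189 in edgeR) and 49.1% at 24 h (0.58 ± 0.12, 0.33 to 0.83, adjusted p = 0.00252), a fold of 1.49 at both times that lay just short of 1.5. Both rises passed in all 15 alternative analyses, with log2 fold changes of 0.48 to 0.69 at 12 h and 0.46 to 0.70 at 24 h. Between 12 and 24 h the difference was 0.0025 on the log2 scale, with a 95% interval of -0.24 to 0.24 (adjusted p = 0.994 in edgeR). Thus Slc39a10 had risen by 12 h, with no further change called, whereas Mt1 was lower again at 24 h. That fall of Mt1 did not pass with certain single libraries left out, as given above.

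The other importers showed no change that passed. Slc39a6 (ENSMUSG00000024270.11, chromosome 18, minus strand) encodes ZIP6, a plasma membrane importer closely related to ZIP10. It stood at 59.4, 60.8 and 63.3 CPM at 0 h, at 63.3, 68.1 and 66.9 CPM at 12 h and at 62.0, 62.7 and 63.2 CPM at 24 h. The 12 h libraries lay above the 0 h ones, but the lowest 12 h and the highest 0 h value were equal to 3 digits. Its log2 fold change at 12 h was 0.11 ± 0.043 (95% interval 0.020 to 0.20, adjusted p = 0.0697 in edgeR), and it passed without 0 h replicate 3 (adjusted p = 0.0425) or without 12 h replicate 1 (adjusted p = 0.0402). At 24 h the log2 fold change was 0.03 against 0 h (adjusted p = 0.651) and -0.08 against 12 h (adjusted p = 0.339).

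Slc39a7 (ENSMUSG00000024327.16, chromosome 17, 34028269 to 34031682, minus strand) encodes ZIP7, which releases zinc from the endoplasmic reticulum. It stood at 14.0, 14.5 and 14.3 CPM at 0 h, at 17.8, 12.3 and 13.9 CPM at 12 h and at 11.9, 11.4 and 13.8 CPM at 24 h. The 12 h libraries spread on both sides of the 0 h ones and the 24 h libraries lay below them. The log2 fold change was 0.05 ± 0.11 at 12 h (adjusted p = 0.795 in edgeR; -0.12 without 12 h replicate 1), -0.21 ± 0.11 at 24 h (adjusted p = 0.232) and -0.25 ± 0.11 between 12 and 24 h (adjusted p = 0.210; -0.088 without 12 h replicate 1). On its own strand, Gm20427 covers 80.7% of its exons, so its counts are uncertain, since reads of both genes may have been split or lost.

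Slc39a14 (ENSMUSG00000022094.15, chromosome 14, 70303469 to 70351425, minus strand) encodes ZIP14, which takes up zinc, manganese and iron. It stood at 69.3, 71.0 and 70.6 CPM at 0 h, at 71.3, 69.9 and 69.2 CPM at 12 h and at 73.8, 75.3 and 71.7 CPM at 24 h. The 24 h libraries lay above all others, yet the log2 fold change was 0.07 ± 0.039 against 0 h (95% interval -0.016 to 0.15, adjusted p = 0.278 in edgeR) and 0.07 ± 0.039 against 12 h (adjusted p = 0.344). At 12 h it was -0.0032 (-0.086 to 0.079, adjusted p = 0.968).

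**Figure D2:**
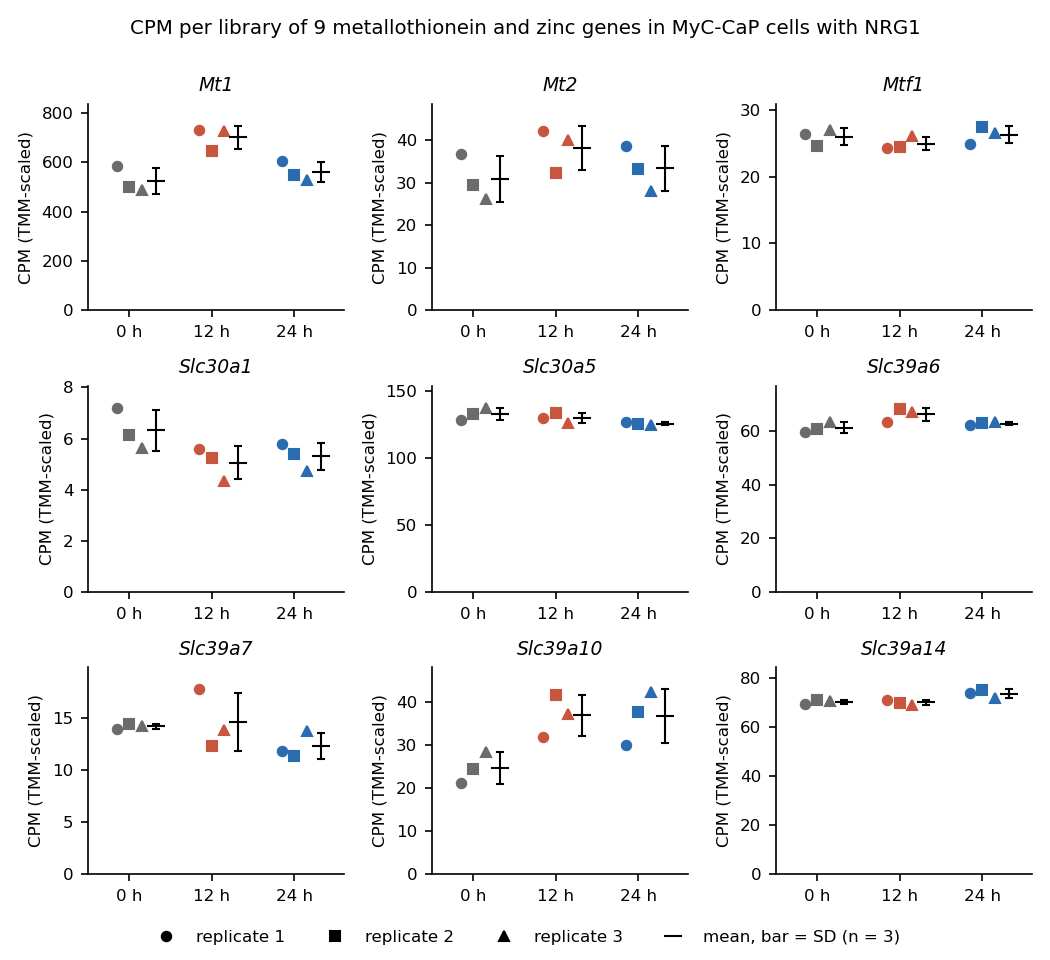
Levels of the 9 genes in each of the 9 libraries, with time of NRG1 on the horizontal axis and TMM-scaled CPM on the vertical axis, which starts at 0 and has its own scale for each gene. Points are libraries and bars give the mean and SD of 3 libraries. Mt1 is highest at 12 h (647 to 730.5 CPM) and Slc39a10 is higher at 12 and 24 h (30.0 to 42.2 CPM) than at 0 h (21.0 to 28.3 CPM), while Mtf1, Slc30a5 and Slc39a14 stay nearly level.

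**Figure D3:**
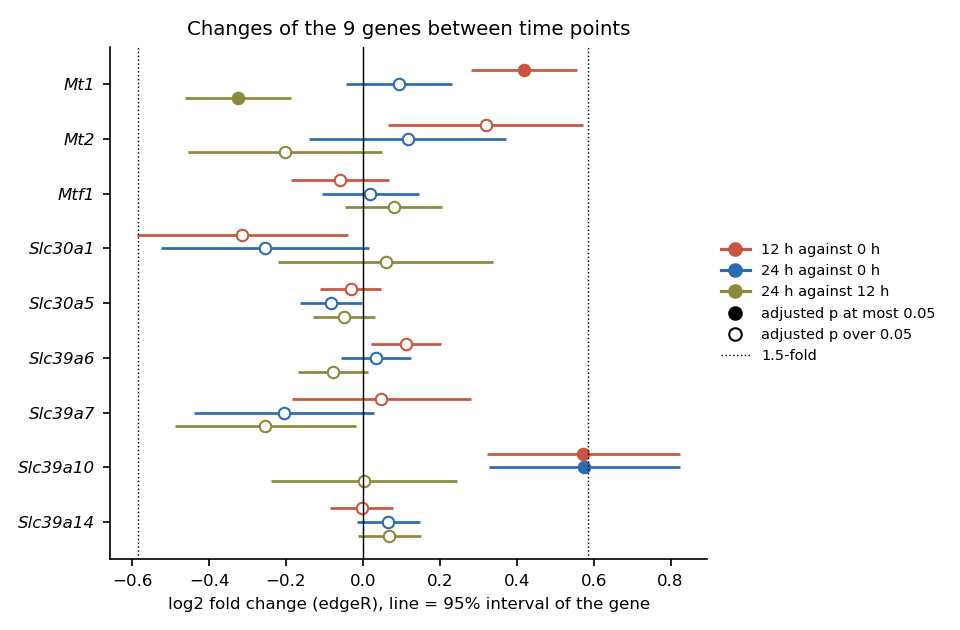
Log2 fold changes of the 9 genes in the 3 comparisons, with each gene's 95% interval from edgeR. Filled points have an adjusted p of at most 0.05 and dotted lines mark 1.5-fold. The 4 filled points are Mt1 at 12 h (0.42), Mt1 between 12 and 24 h (-0.32), and Slc39a10 at 12 h (0.57) and 24 h (0.58), all inside the dotted lines.

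Counted by library rather than by test, 4 of the 9 genes did not overlap between 12 and 0 h (Mt1, Slc39a6 and Slc39a10 higher, Slc30a1 lower), against 38.4% of all genes tested (19.9% higher, 18.5% lower). Between 24 and 0 h the count was also 4 (Slc39a10 and Slc39a14 higher, Slc30a5 and Slc39a7 lower), against 35.5% (17.6% higher, 17.9% lower). Between 24 and 12 h it was 3 (Slc39a14 higher, Mt1 and Slc39a6 lower), against 25.0% (11.4% higher, 13.6% lower).

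Within a time point, the same libraries were high or low for several of the 9 genes, a pattern picked out after the values were seen. Replicate 1 was the highest of the 3 libraries at all 3 times for Mt1, Mt2 and Slc30a1, and the lowest at all 3 times for Slc39a6 and Slc39a10. Of all genes tested, 6.38% had replicate 1 highest and 6.49% had it lowest at all 3 times, more than for replicate 2 (2.85% and 2.85%) or replicate 3 (3.46% and 3.34%). The spread between replicates, given as SD in percent of the mean, was 10.2, 6.66 and 7.12% for Mt1 at 0, 12 and 24 h, 17.5, 13.6 and 15.8% for Mt2 and 14.8, 13.2 and 16.8% for Slc39a10. For Slc39a14 it was 1.27, 1.53 and 2.44%. The SE of its log2 fold change at 12 h in edgeR was 0.039, against 0.065 for Mt1 and 0.12 for Mt2 and for Slc39a10.

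To compare levels between genes, CPM were divided by exonic length. At 0 h the order in CPM per kb of exon was Mt1 at 421, Mt2 at 52.4, Slc30a5 at 18.3, Slc39a6 at 15.0, Slc39a14 at 6.66, Slc39a7 at 5.52, Slc39a10 at 4.03, Mtf1 at 2.91 and Slc30a1 at 1.21, and no neighbours in this order overlapped over their 3 libraries. At 12 and 24 h, Slc39a10 stood above Slc39a7, at 6.04 against 5.69 at 12 h and at 6.01 against 4.77 at 24 h, but at both times its range overlapped those of Slc39a7 and Slc39a14. All other neighbours kept their places without overlap. The merged exons of Mt1 cover its introns, because 1 annotated transcript is unspliced. Over the 549 bases of its spliced 3-exon transcript, Mt1 stood at 955, 1276 and 1020.0 CPM per kb at 0, 12 and 24 h. Among all measured zinc and metallothionein genes, the level per kb nearest to that of Mt2 was that of the plasma membrane importer gene Slc39a1, at 47.6 CPM per kb at 0 h, and their ranges overlapped. The levels and places of Mt2 and Slc39a7 rest on counts left uncertain by the genes that overlap them.

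**Figure D4:**
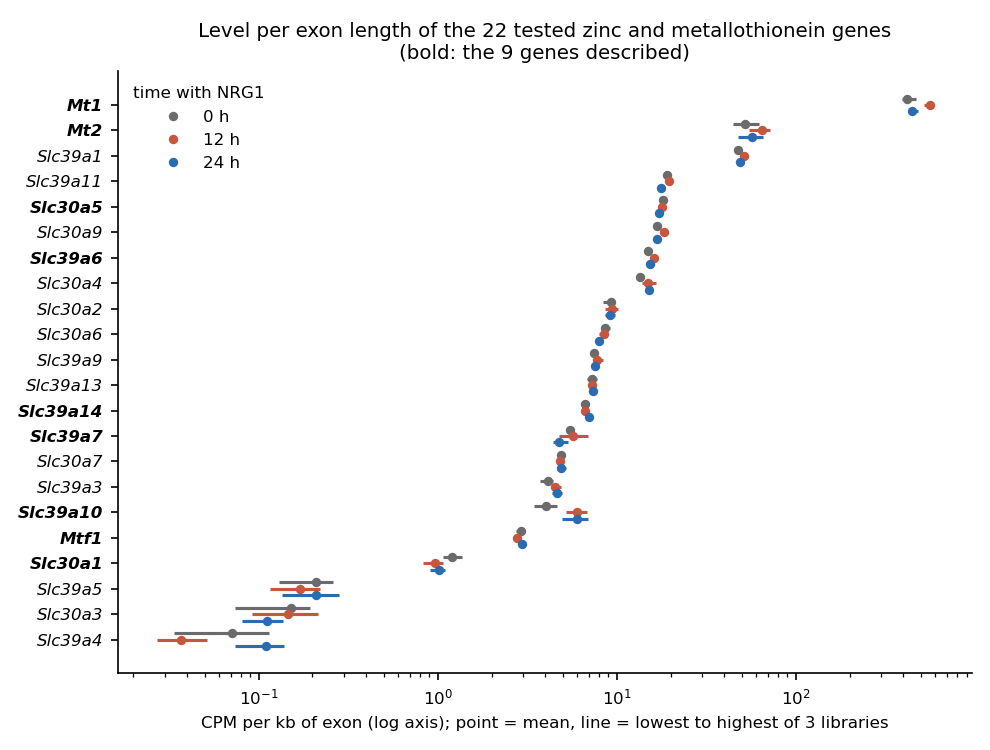
Level per exonic length of the 22 tested zinc and metallothionein genes, with the 9 genes described here in bold. The horizontal axis is CPM per kb of exon on a log scale, points are means and lines run from the lowest to the highest of 3 libraries at 0, 12 and 24 h. Mt1 lies highest (421 at 0 h) and Slc39a10 lies at 4.03 at 0 h, left of its later values of 6.04 and 6.01.

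Of the remaining metallothioneins, Mt3 was not analysed here and Mt4 had at most 8 counts in any library. Of the other SLC30 transporters, 6 of 8 were tested. At 12 h 1 of these was higher and 0 lower, beside 13.6% higher and 11.9% lower among all genes. This was Slc30a9 (log2 fold change 0.14 ± 0.034, adjusted p = 0.00547 in edgeR), which fell again by 24 h (-0.14 against 12 h, adjusted p = 0.0233). Slc30a9 encodes a mitochondrial zinc transporter, and it stood at 207, 208 and 206 CPM at 0 h, 225, 226 and 235 CPM at 12 h and 204, 212 and 206 CPM at 24 h. Of the other SLC39 transporters, 7 of 10 were tested. At 12 h, beside the same shares, 1 was higher and 0 lower, namely Slc39a1 (0.12 ± 0.038, adjusted p = 0.0288), and Slc39a11 was lower at 24 than at 12 h (-0.15, adjusted p = 0.0388). At 24 h against 0 h, 0 of the other SLC30 and 0 of the other SLC39 genes passed, beside 17.4% of all genes.

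Metallothioneins also bind copper and are induced by other signals, so genes of copper handling, of iron and heme handling and of the glucocorticoid response, another known inducer of Mt1 and Mt2, were followed too. Of 10 copper genes tested, 1 was higher and 4 were lower at 12 h, beside 13.6% and 11.9% of all genes. The copper importer gene Slc31a1 was higher (log2 fold change 0.21, adjusted p = 0.00255 in edgeR), and Ccs, the copper chaperone of superoxide dismutase (-0.20, adjusted p = 0.0120), Cox17, the copper chaperone of cytochrome c oxidase (-0.33, adjusted p = 0.0154), Slc31a2 and Sod1 were lower. Cox17 and Slc31a2, like Slc39a11 above, are named after their values were seen, to complete the counts. At 24 h, 0 were higher and 2 were lower, beside 9.67% and 7.76% of all genes. These were Ccs (-0.31, adjusted p = 0.000591) and Sod1, the copper- and zinc-binding superoxide dismutase (-0.18, adjusted p = 0.00294). Of 11 iron and heme genes, 1 was higher at 12 h and 1 lower, a share below the 25.5% of all genes that changed. Hmox1, the heme oxygenase gene, stood at 10.7, 11.5 and 11.3 CPM at 0 h, at 17.9, 15.7 and 23.5 CPM at 12 h and at 15.5, 14.7 and 14.9 CPM at 24 h, with no overlap of 0 h with the later times. Its log2 fold change was 0.76 ± 0.11 at 12 h (adjusted p = 0.000100 in edgeR) and 0.43 ± 0.11 at 24 h (adjusted p = 0.0150). Slc25a28, a mitochondrial iron importer gene, was lower at 12 h than at 0 h (-0.24, adjusted p = 0.00267) and higher at 24 h than at 12 h (0.25, adjusted p = 0.0108). Of 8 glucocorticoid-induced genes tested, 0 were higher at 12 h and 2 were lower, beside 13.6% and 11.9% of all genes. These were Tsc22d3 (-0.14, adjusted p = 0.00590) and Zbtb16 (-0.11, adjusted p = 0.0465), and the 2 of 8 lie near the 25.5% of all genes. At 24 h against 0 h, 0 passed, beside 17.4% of all genes. Between 12 and 24 h, 1 of 8 was higher, Tsc22d3 (0.15, adjusted p = 0.0185), and 0 were lower, beside 1.97% and 3.06% of all genes.

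As a description, 8433 genes with a mean of at least 10 CPM were ordered by how closely they followed the mean log2 CPM of Mt1 and Mt2 over the 9 libraries. Mt1, Mt2 and genes with predicted or clone names were left out of the ordering. The most alike were Krt19, a keratin gene (Pearson r = 0.95), Egln1, which encodes an oxygen-sensing prolyl hydroxylase (0.95), Bsg, which encodes the lactate transporter chaperone basigin (0.94), Selenbp2 (0.92) and Nsfl1c (0.91). The least alike were Plekhm1 (-0.98), Snx4 (-0.94), Tmem184c (-0.93), Rps6kb1, which encodes a ribosomal S6 kinase (-0.93), and Mtmr12 (-0.92). Of the zinc genes described here, Slc39a6 had r = 0.28, Slc39a7 0.23, Slc39a10 0.11, Slc39a14 -0.14, Slc30a5 -0.38 and Mtf1 -0.42. Slc30a1 lay below 10 CPM and was not ordered. These coefficients are over the same 9 libraries, so that a library's depth and time enter every gene's values, and with so many genes ordered the ends are extreme by selection.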

How the data were processed

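Poly(A) RNA of 9 MyC-CaP samples was sequenced. Reads of 150 bp were trimmed with Cutadapt, aligned to GRCm38.p6 with STAR under GENCODE vM24, and assigned to genes with featureCounts. What the authors deposited are unnormalized counts. The strand setting and the treatment of reads matching several genes are not given in the sources used here. Positions, lengths and overlaps came from GENCODE vM21 on the same assembly, where all 9 genes had the same start and end.

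Groups were the times in the labels. In edgeR 4.0.16 (R 4.3.3), filterByExpr left 11373 genes, libraries were scaled by TMM, all 9 were fitted together with glmQLFit, and 3 pairs of times were compared with glmQLFTest, with Benjamini-Hochberg adjustment over all genes tested. The edgeR fit shares information on the spread across genes. Log2 CPM used a prior count of 2. Intervals are 95% per gene and are not adjusted. Alternatives were DESeq2 1.42.0, DESeq2 size factors, total counts, no filter, a fit on only the times compared, the replicate number as a block, and each library left out in turn. The members and lists were chosen with earlier results of these data known. All 9 genes were named whatever their change, as were up to 3 called genes with the smallest adjusted p per list, and the 5 genes most and least like Mt1 and Mt2. On simulated data, 185 of 199 genes changed by 2-fold at 12 h were recovered (93.0%), with 13 false calls among 11302 genes tested. Changes as small as those of the 9 genes were not simulated.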

Additional observations from a re-analysis of the deposited data

How the results depend on the processing

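Among the 9 genes, the rise of Mt1 at 12 h and the rises of Slc39a10 at 12 and 24 h passed in every alternative tried. With the replicate block 4 of the 9 passed at 12 h instead of 2, Mt2 (0.32, adjusted p = 0.00877) and Slc30a1 (-0.32, adjusted p = 0.0348) being added. The numbers were not taken to pair the libraries, since over the 9 same-numbered pairs the correlation of deviations ran from -0.074 to 0.13 and 1 exceeded 0.1. The 3 pairs of replicate 1 had 0.091, 0.049 and 0.13, each above its highest value with another number, which did not hold for every pair of replicates 2 and 3. With no filter, 2 passed between 12 and 24 h, Mt2 being added (-0.20, adjusted p = 0.0180), and 950 of all genes were called there instead of 572. Mt2 also passed at 12 h with no filter (0.32, adjusted p = 2.35e-06). That fit gave far smaller adjusted p at 12 h for Mt1 (0.42, adjusted p = 2.48e-21) and Slc39a10 (0.58, adjusted p = 7.21e-18) too, at nearly unchanged fold changes. In DESeq2, Mt2 did not pass at 12 h (0.31, adjusted p = 0.222). With 1 library left out, the number of the 9 that passed was 1 to 2 at 24 h against 0 h (2 without 0 h replicate 1) and 0 to 1 between 12 and 24 h, and all genes called between 12 and 24 h ran from 214 (without 12 h replicate 1) to 879 (without 12 h replicate 3). Leaving out 24 h replicate 1, 2 or 3 gave 217, 220 and 263. The causes were not tested.

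Signs turned only for differences that did not pass. With 1 library left out, Slc30a5 at 12 h ran from -0.056 to 0.0010, Slc39a7 at 12 h from -0.12 to 0.16, Slc39a14 at 12 h from -0.015 to 0.017 (0.0038, 0.0071 and 0.0095 between), Mtf1 at 24 h from -0.018 to 0.057 (-0.0078 between), Slc30a1 between 12 and 24 h from -0.042 to 0.15 (-0.0023 between) and Slc39a10 between 12 and 24 h from -0.11 to 0.13 (-0.096 and -0.018 between). Slc39a10 between 12 and 24 h also turned with DESeq2 (-0.0028) and with the replicate block (-0.010). The alternatives for the test of the 3 time points at once were chosen after seeing the data, and 2 to 3 of the 9 passed under them. With 3 libraries per time, changes of Slc30a1 and Mt2 of the size seen lie near the limit of what passes.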
